A study of Mus musculus with 8 samples.

Results

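Dendritic cells lacking the microRNA miR-155 were compared with wild-type cells after exposure to lipopolysaccharide (LPS), the outer membrane glycolipid of Gram-negative bacteria that is sensed by the receptor Tlr4. The comparison rests on 4 of the 8 arrays of the series, the 2 arrays titled as LPS-stimulated knockout and the 2 titled as LPS-stimulated wild type. All cells came from male C57BL/6Jax mice, wild type or miR-155 knockout (the labels do not say how the allele was made). Whole bone marrow was cultured with GM-CSF (40 ng/mL, 7 days), a cytokine that drives myeloid and dendritic growth. LPS at 100 ng/mL was then added, and after 16 h CD86-positive cells were sorted by flow cytometry. The other 4 arrays, 2 for each genotype, held cells grown without LPS and sorted as CD86-negative, and were used for the estimate of spread and as values without stimulation. LPS therefore stands for stimulation and gate together, and fewer cells of a type and less RNA per cell cannot be told apart in such bulk samples. Nothing in the labels says whether the replicates came from separate animals or cultures, so the p-values measure only the spread between these samples, which may be technical.

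MicroRNAs are short RNAs that guide Argonaute proteins to messenger RNAs. Pairing runs mainly through the seed near the 5′ end of the microRNA, and a matched transcript is usually degraded or translated less, so that loss of a microRNA is known to leave its direct targets higher. miR-155 is cut from the non-coding transcript Mir155hg (formerly Bic), is induced by LPS in dendritic cells and macrophages, and has published targets that restrain or shape Toll-like receptor and cytokine signalling, among them the lipid phosphatase SHIP1 (Inpp5d) and the repressor Bach1. The mature strand studied here, encoded on mouse chromosome 16, is shown from RefSeq. Its seed (bases 2 to 8) is in capitals because the probe sequences are searched below for its match.
miR-155-5p: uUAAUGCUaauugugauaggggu
The DNA letters that pair with this seed are AGCATTA.

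RNA was read on 1-colour Agilent arrays with 60-base probes, 45018 spots an array. Each value below is the log2 of the deposited processed intensity minus the log2 of that array's own 75th percentile, so 1 unit is a doubling and 0 is the level of the 75th percentile probe. The 4 LPS arrays had 54.5% to 58.3% of their spots well above background. On 1 knockout LPS array (replicate 2), 18 spots had local background above signal, against 0 to 5 on the others. Correlations across genes, which are not independent replicates, were 0.990 and 0.989 between knockout and wild type LPS arrays of the same replicate number but 0.972 and 0.973 between the 2 arrays of a genotype. The first principal component of the 4 LPS arrays (68.8% of the variance) separated replicate 1 from replicate 2, and the next (19.0%) separated the genotypes. Both knockout LPS arrays and wild-type replicate 1 lay on the same slide, called slide 2 here, and wild-type replicate 2 lay on another. Both unstimulated wild-type arrays and unstimulated knockout replicate 2 lay on that other slide, and unstimulated knockout replicate 1 on slide 2. No array name matched Mir155hg, Bic or Mir155, so the deletion was not checked through its own transcript. Of the defining dendritic cell genes, Itgax (CD11c) read 7.39 and 6.98 in knockout and 7.78 and 6.71 in wild type, and the class II gene H2-Aa read 6.99 and 7.24 against 6.38 and 7.56. These 2 markers overlapped between genotypes. Clec9a and Cd209a, 2 further dendritic markers, were well above background on none and on 1 of the 4 LPS arrays. Both were so on all 4 unstimulated arrays.

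Very few genes differed between knockout and wild-type cells after LPS beyond the spread between arrays. Of 15400 genes tested, 4 were called at an adjusted p under 0.05 (0.026%), all 4 lower in knockout cells: Fam190a, Mrpl39, Mmrn1 and Gm16867. For 3 of the 4, Mrpl39 being the exception, neither knockout LPS array was well above background, so these 3 passed the detection filter only through the wild-type group, where they are high. Without a detection filter 2 genes were called, with Gm16867 (adjusted p = 0.0836) and Mmrn1 (adjusted p = 0.0603) outside the threshold, and with detection required on all 4 LPS arrays 1 was called, Mrpl39. The median absolute difference over all genes was 0.154 log2 units, and the median standard error 0.360. At an unadjusted p under 0.05 the count was 189 (1.23%), of which 129 were higher in knockout (0.838%) and 60 lower (0.39%). Both knockout arrays lay above both wild-type arrays for 1711 genes (11.1%) and below them for 1585 (10.3%). Of the genes with a fitted value, 51.6% were lower in knockout cells. That share was 62.2% with median scaling and 61.3% without a detection filter. In unstimulated cells 36 genes were called (0.234%), 2 higher and 34 lower in knockout, and no gene was called in both states. The genotype difference itself differed between states for 7 genes (0.0455%). With slide as a block limma called 0 genes after LPS (233 at an unadjusted p under 0.05), and with only the LPS arrays in the fit 0 (245). With replicate number as a block it called 1, Fam190a. Without knockout replicate 1, knockout replicate 2 or wild-type replicate 1 it called 0 (248, 240 and 333), and without wild-type replicate 2 it called 1.

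**Figure D1:**
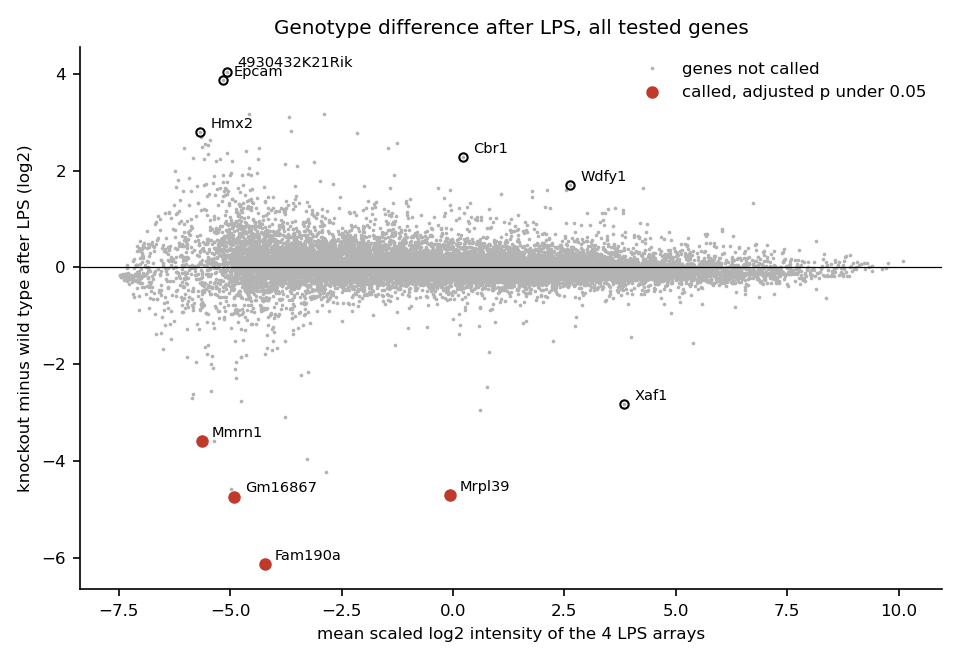
Knockout minus wild type after LPS (vertical axis, log2) against the mean scaled log2 intensity of the 4 LPS arrays (horizontal axis), 1 point for each of 15400 genes. The 4 called genes, filled circles, all lie below 0, and named open circles are genes that were not called.

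Mrpl39, which encodes a protein of the large subunit of the mitochondrial ribosome, fell in LPS-treated knockout cells. Its probe is printed because the call rests on this 1 probe. It runs from mm9 chr16:84718622-84724086 on the minus strand and spans an exon junction. Of its 2 reading frames without an earlier stop, 1 ends in a stop codon, and which is read was not checked.
Mrpl39 probe: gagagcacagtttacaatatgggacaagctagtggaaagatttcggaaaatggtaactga
Mrpl39 read -2.51 and -2.35 on the knockout LPS arrays and 1.98 and 2.57 on the wild-type LPS arrays. The groups were far apart, with every array well above background. The difference was -4.70 ± 0.32 log2 units (SE, n = 2 per group, adjusted p = 0.0152, limma). In unstimulated cells the values were 2.49 and 2.08 in knockout and 2.53 and 2.10 in wild type, a difference of -0.03 ± 0.32. The test of the difference between these genotype differences gave -4.67 ± 0.45 (adjusted p = 0.0448). The knockout LPS arrays therefore stood apart from the other 6 arrays. With slide as a block the difference was -4.66 (adjusted p = 0.0756), and within the slide that holds both knockout arrays it was -4.41.

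In RefSeq gene order Mrpl39 is the first protein-coding gene after Mir155hg, followed by Jam2, Atp5j, Gabpa and App, so its neighbours were read as a group. Of 7 genes tested within 1 Mb of the Mrpl39 probe, Mrpl39 was the one called. After LPS 3 of the 7 lay wholly below wild type, against 10.3% of all genes, and 0 wholly above, against 11.1%. Jam2, a junctional adhesion molecule, read 0.56 and -0.61 in knockout and 1.64 and 0.73 in wild type after LPS, a difference of -1.21 ± 0.64 without overlap that was not called. Atp5j, a subunit of mitochondrial ATP synthase, read 6.16 and 5.93 against 6.19 and 6.36, a difference of -0.22 ± 0.29 without overlap. Gabpa, an ETS transcription factor, differed by -0.11 ± 0.38 and App, the amyloid precursor protein, by 0.02 ± 0.23. Both had overlapping arrays. In a wider list of 29 genes flanking Mir155 on chromosome 16, 18 were tested, the median was -0.05, and 2 were higher (11.1%, equal to the 11.1% of all genes) and 4 lower (22.2%, against 10.3%) without overlap. The transcriptional repressor Bach1, which belongs to that list and to the published targets, is described with the targets.

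Fam190a (now Ccser1, a coiled-coil serine-rich protein) and Mmrn1 (multimerin 1, a secreted platelet and endothelial protein) lie on chromosome 6. Both were lower in knockout than in wild-type cells after LPS. Fam190a read -7.05 and -7.55 in knockout and -0.72 and -1.59 in wild type after LPS. Neither knockout array was well above background, so the fold is a bound. For such genes the bright group's mean was set against the other group's mean of, per array, the higher of the probe's own signal and the lowest signal among probes well above background. Fam190a was thus at least 16.9-fold lower (measured difference -6.14 ± 0.38, adjusted p = 0.0148). Mmrn1 read -7.23 and -7.64 against -3.92 and -3.78 and was at least 2.62-fold lower (-3.59 ± 0.29, adjusted p = 0.0312).

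Both had their wild-type LPS values above every other group. Without LPS, Fam190a read -7.60 and -7.12 in knockout and -6.52 and -6.38 in wild type, and Mmrn1 read -7.72 and -7.26 against -6.78 and -6.52. None of these 8 values was well above background. The genotype difference of Fam190a after LPS exceeded that without LPS by -5.23 ± 0.53, short of the threshold (adjusted p = 0.0529). Other probes of these genes were dim: a second Mmrn1 probe was not well above background on any of the 4 LPS arrays, and 2 further Fam190a probes were well above background on 1 wild-type array each. With slide as a block the differences were -6.24 (adjusted p = 0.0674) for Fam190a and -3.44 (adjusted p = 0.0993) for Mmrn1. With normexp background correction fitted without the spots whose background exceeded their signal, they were -2.23 and -0.71, neither called.

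Gm16867, a predicted gene, lies on chromosome 14 next to 2 unnamed transcripts that were also lower in knockout cells after LPS. Gm16867 read -7.05 and -7.52 in knockout and -1.94 and -3.14 in wild type after LPS, and was at least 6.48-fold lower (-4.74 ± 0.42, adjusted p = 0.0452). The transcript AK038254 read -7.02 and -7.53 against -1.99 and -3.39, at least 5.84-fold lower (-4.59 ± 0.51, adjusted p = 0.0774). AK019700 read -5.17 and -5.34 against -0.61 and -1.96 (-3.97 ± 0.45, adjusted p = 0.0809). None of the 3 overlapped between genotypes, and both of the last missed the threshold. Without LPS AK019700 read -6.00 and -5.60 in knockout and -3.48 and -3.26 in wild type, at least 4.06-fold lower and not called, and Gm16867 and AK038254 were not well above background on any unstimulated array. Their probes lie within mm9 chr14:69902509-70023394. The probe of Entpd4, an enzyme of nucleotide breakdown in the Golgi and lysosomes, covers nearly the same bases as that of Gm16867 and differed by -0.57 ± 0.53 with overlapping arrays. Of 26 genes tested within 1 Mb the median difference was -0.02. Slc25a37 (mitoferrin, the mitochondrial iron importer), and R3hcc1 flank the 3 transcripts and differed by -0.02 ± 0.53 and 0.02 ± 0.31. Gm16867 was -4.98 (adjusted p = 0.0993) with slide as a block and -1.40 with the normexp fit described above, not called in either.

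**Figure D2:**
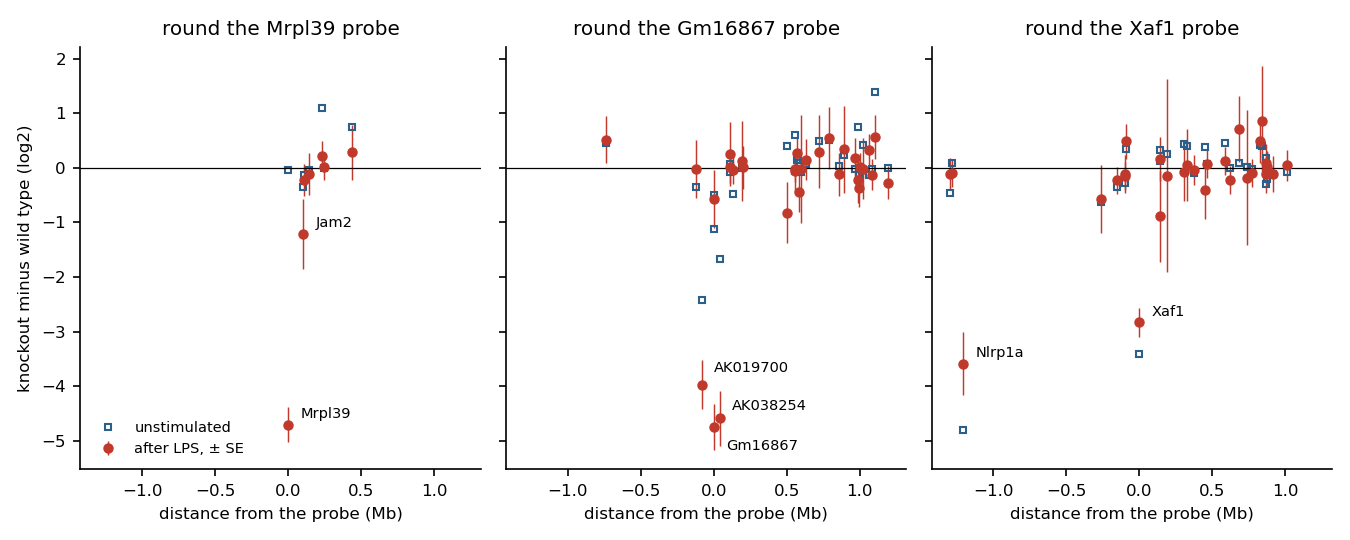
Knockout minus wild type (vertical axis, log2) for each tested gene against its distance in Mb from the Mrpl39, Gm16867 and Xaf1 probes (horizontal axis), with filled circles ± SE after LPS and open squares in unstimulated cells. Mrpl39 is low after LPS and near 0 without it, 3 transcripts are low round Gm16867, and Xaf1 and Nlrp1a are low in both states.

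Xaf1, the interferon-inducible binding partner of the apoptosis inhibitor XIAP, was lower in knockout cells both with and without LPS. It read 2.56 and 2.30 in knockout and 5.05 and 5.46 in wild type after LPS. The gap, -2.83 ± 0.27, lay just outside the threshold (adjusted p = 0.0505) and just inside it under 5 alternatives, at adjusted p between 0.0289 and 0.0491. It lay outside under the other 12, among them slide as a block (adjusted p = 0.185), normexp (0.457), only the LPS arrays (0.867) and leaving out 1 LPS array at a time (0.171 to 0.443). Without LPS Xaf1 read -2.53 and -2.37 against 0.92 and 0.99, a called difference of -3.40 ± 0.27 (adjusted p = 0.00908). The test of the difference between states, 0.58 ± 0.38, did not pass. Of 26 genes tested within 1 Mb of its probe on chromosome 11 the median was -0.09 and Xaf1 was the one with an unadjusted p under 0.05 and a lower value in knockout.

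Nlrp1a, an inflammasome sensor encoded near Xaf1, read -7.23 and -7.06 in knockout and -4.49 and -2.64 in wild type after LPS. It was at least 3.18-fold lower (-3.58 ± 0.58, adjusted p = 0.417) and was called without LPS, where again neither knockout array was well above background, at least 6.42-fold lower (-4.80 ± 0.58, adjusted p = 0.0409). The Schlafen genes Slfn9 and Slfn8, interferon-inducible regulators of lymphoid and myeloid cells, lie further along the same chromosome. Slfn9 read -0.05 and -1.70 against 2.30 and 1.84 (-2.95 ± 0.63). Slfn8 read 0.19 and -1.15 against 2.06 and 1.92 (-2.47 ± 0.59). Neither overlapped between genotypes and neither was called, though both had an unadjusted p under 0.05. The 2 Schlafen genes are closely related in sequence, so how far their probes share signal is uncertain. Their differences without LPS were -2.26 ± 0.63 and -1.81 ± 0.59.

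The remaining genes with the smallest p among those lower in knockout were dim. Frk, a Src-related tyrosine kinase, was at least 1.65-fold lower (-2.70 ± 0.30) by the probe tested, but another of its 4 probes lay the other way, at -7.27 and -3.81 in knockout against -7.27 and -7.17, well above background on 1 knockout array. Fam164c (now Zc2hc1c) was at least 1.63-fold lower (-2.63 ± 0.28). Ceacam15, of the carcinoembryonic antigen family, was at least 2.61-fold lower and the olfactory receptor Olfr1495 at least 1.41-fold lower. The transcript AK084236 was below background in both genotypes after LPS, so no fold is given. None of these 5 was called.

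No gene was called higher in knockout cells, and the 15 with the smallest p are given as values. Wdfy1, an endosomal phosphoinositide-binding protein that takes part in Toll-like receptor signalling, read 3.44 and 3.50 in knockout and 1.88 and 1.66 in wild type, a difference of 1.70 ± 0.25 (adjusted p = 0.36). Its genotype difference without LPS was 1.95 ± 0.25 (adjusted p = 0.0523). Its 3 probes disagreed: the others gave 2.16 and -1.14 ± 0.36, and their mean gave 0.91. Cbr1, a carbonyl reductase encoded on chromosome 16, read 1.41 and 1.32 against -0.80 and -1.02 (2.27 ± 0.36, adjusted p = 0.405), and differed by 2.13 ± 0.36 without LPS. Slc6a9, the glycine transporter GlyT1, read 0.49 and 0.67 against -0.82 and -0.61 (1.29 ± 0.27), and differed by -0.05 ± 0.27 without LPS. These 3 were well above background on every LPS array.

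Most other members of that group were not well above background on the wild-type LPS arrays. Hmx2, a homeobox factor, read -4.48 and -4.07 in knockout against -7.07 and -7.06, at least 1.74-fold higher (2.79 ± 0.30, adjusted p = 0.0774). Without LPS it lay the other way, at -7.55 and -7.33 against -4.13 and -4.70 (at least 1.98-fold lower, fitted difference -3.03 ± 0.30, adjusted p = 0.0225). There neither knockout array and 1 of the 2 wild-type arrays was well above background. The fitted difference between states was 5.82 ± 0.42 (adjusted p = 0.0393), whose size rests on groups below background in each state and is no measured fold. A second Hmx2 probe was dim on every LPS array. The uncharacterised 4930432K21Rik read -2.22 and -3.89 against -7.10 and -7.10, at least 4.03-fold higher after LPS, and lay the other way without LPS, at least 3.07-fold lower (fitted difference -2.67 ± 0.71). Epcam, an epithelial adhesion molecule also found on Langerhans-type dendritic cells, read -2.13 and -4.32 against -7.10 and -7.08, at least 3.59-fold higher, and differed by -0.08 ± 0.70 without LPS. In each of these 3 the knockout LPS arrays stood above the wild-type ones. Sema6a, a semaphorin, was at least 2.82-fold higher, Gm9615 at least 4.22-fold, and Myrip, a linker of secretory granules to myosin, at least 1.95-fold. A second Myrip probe overlapped between genotypes, at -4.44 and -7.39 against -4.06 and -7.11. Further probes of Sema6a, Iqca, 4930432K21Rik and Fam164c were dim on all 4 LPS arrays. The fold was at least 1.71 for Iqca, 1.29 for 6030440G07Rik and 1.79 for NAP111197-1, and NP430955 has no fold because it was not well above background on 1 knockout and both wild-type arrays. The transcripts AK035714 and A_52_P541760 (a probe without a gene name) were at least 4.38-fold and 2.01-fold higher, and were called higher without LPS as well, where neither wild-type array was well above background (at least 5.98-fold and 2.43-fold, adjusted p = 0.0232 and 0.0409).

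**Figure D3:**
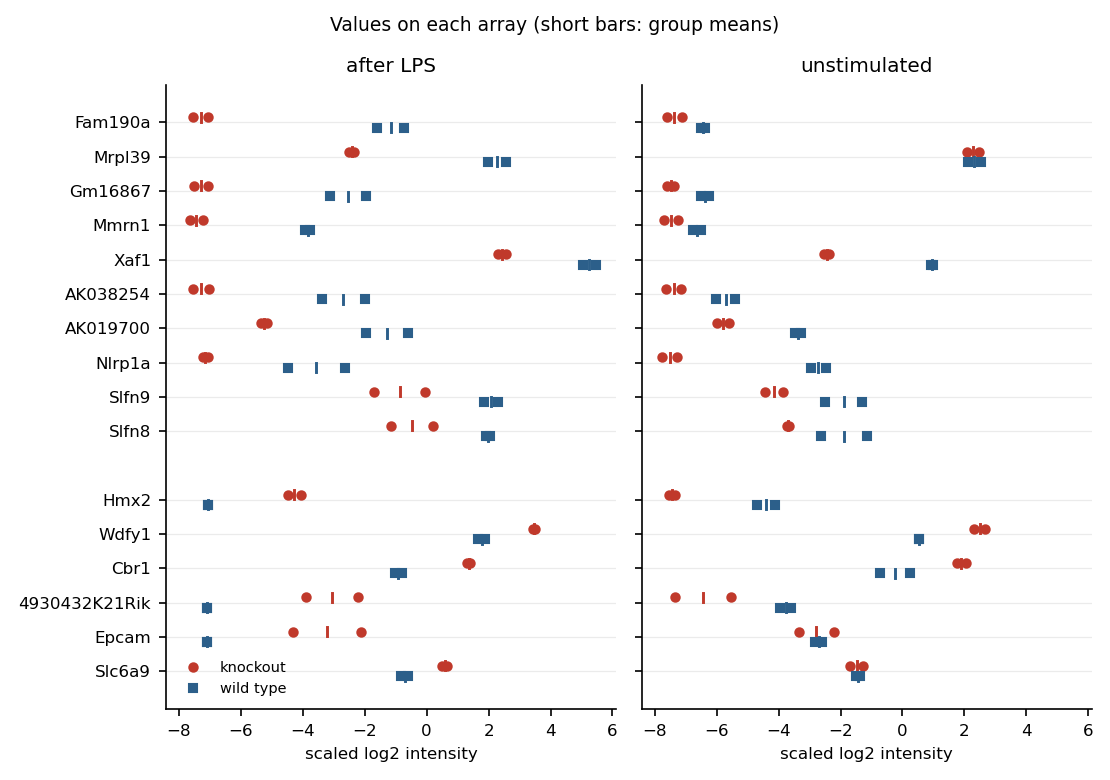
Scaled log2 intensity (horizontal axis) on each array for 16 genes, after LPS on the left and unstimulated on the right, with circles for knockout, squares for wild type and short bars for group means. No gene shown has overlapping genotypes after LPS, and Mrpl39, Epcam and Slc6a9 overlap without LPS.

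Published miR-155 targets were more often higher than lower in knockout cells after LPS. Of 60 listed targets 57 were tested, 56 of them well above background on all 4 LPS arrays, and none was called (background 0.026% of genes). The fitted difference was above 0 for 45 (78.9%, against 48.4% of all genes) and below 0 for 12. Knockout arrays lay wholly above wild type for 20 (35.1%, against 11.1% of all genes) and wholly below for 1 (1.75%, against 10.3%). The median was 0.18 log2 units, against -0.01 over all genes, and -0.04 for the same targets without LPS. It was 0.17 with slide as a block, 0.19 within slide 2, and between 0.12 and 0.19 over 12 alternatives, but -0.31 under normexp with every spot kept, a setting in which the reference genes had a median of -0.82.

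Among the signalling targets, Inpp5d (SHIP1), which removes a phosphate from the lipid product of PI 3-kinase, read 3.54 and 3.76 in knockout and 3.06 and 3.22 in wild type (0.51 ± 0.26). Tab2, an adaptor that links TRAF6 to the kinase TAK1, read 3.10 and 3.02 against 2.67 and 2.39 (0.53 ± 0.27). Smad5, which carries bone morphogenetic protein signals, read 1.21 and 1.33 against 0.29 and 0.61 (0.82 ± 0.28). All 3 pairs of groups were separate, and the differences without LPS were -0.02, 0.09 and -0.03. Ikbke, a kinase upstream of interferon regulatory factors, differed by 0.27 ± 0.29. Socs1, the feedback inhibitor of JAK kinases, read 5.52 and 4.92 against 5.44 and 5.43 (-0.21 ± 0.68), with overlapping groups.

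Among transcription factors and chromatin proteins, Bach1, a haem-regulated repressor, read 1.92 and 1.31 in knockout against 0.89 and 0.45 (0.94 ± 0.35). Arntl (BMAL1), of the circadian clock, differed by 0.62 ± 0.35 and Ets1 by 0.43 ± 0.23, each without overlap. Jarid2, a cofactor of Polycomb repressive complexes, differed by 0.59 ± 0.33 with overlap. Cebpb (C/EBP-beta) differed by 0.22 ± 0.32, Sfpi1 (PU.1) by 0.08 ± 0.35 and Fos by 0.46 ± 0.70, all with overlap. E2f2, a cell cycle factor, was the target that lay wholly below wild type, at -2.85 and -2.20 against -1.72 and -1.75 (-0.79 ± 0.47).

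Of the remaining targets, Picalm, a clathrin assembly protein, read 5.27 and 5.16 against 4.39 and 4.60 (0.72 ± 0.28). Smad5, Bach1 and Picalm were the 3 targets higher at an unadjusted p under 0.05, a level that 0.838% of all genes passed in that direction. Tspan14, a tetraspanin that escorts the protease ADAM10, read 3.14 and 3.87 against 2.17 and 3.10 (0.87 ± 0.39). Arg2, mitochondrial arginase, had the largest difference of the list and the largest error, at 3.79 and 2.87 against 1.99 and 1.49 (1.59 ± 1.18). Its groups did not overlap after LPS, and its fitted difference was -1.45 ± 1.18 without LPS.

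**Figure D4:**
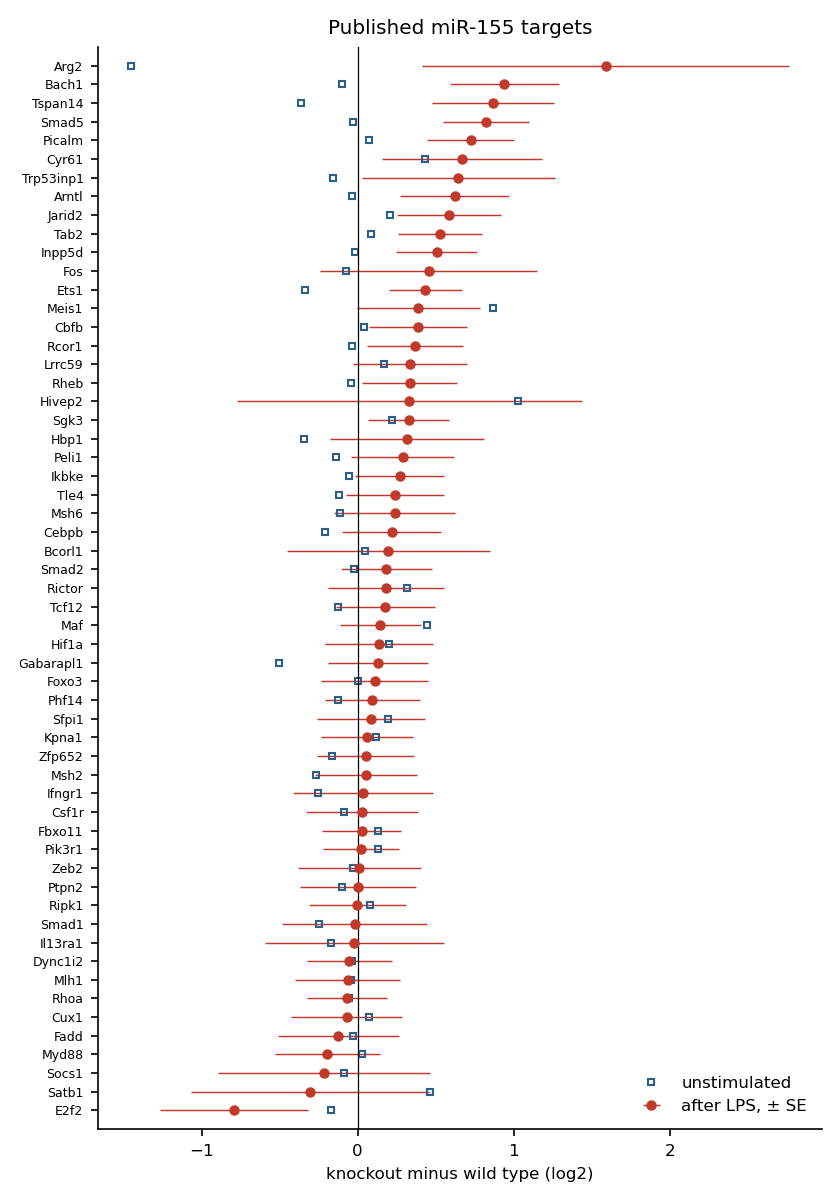
Knockout minus wild type (horizontal axis, log2) for the 57 tested published miR-155 targets (vertical axis), with filled circles ± SE after LPS and open squares in unstimulated cells. After LPS 45 of 57 circles lie above 0, and the median is 0.18 after LPS and -0.04 without it.

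The seed match was also searched in the probe sequences themselves, without regard to published targets. AGCATTA was found on the sense strand of the tested probe of 64 genes (0.416% of tested genes), in 28 of them followed by A, and its reverse complement TAATGCT in 60 genes (0.390%), with none holding both. A match in a probe is a description of those letters in the transcript, not a shown binding site, and a probe covers a small part of a transcript. The windows below have at most 23 bases, with the match in capitals. They show published targets, Cebpb and the developmental homeobox gene Meis1, and 3 genes that did not overlap between genotypes.
Cebpb: ccgtttcgAGCATTAaagtgaag
Meis1: atttttagAGCATTAaaataact
Wdr41: gcttggtAGCATTAaaatcata
AI316807: atttctacAGCATTAaaacatga
Arl6: gcttagagAGCATTAaagacaag
Wdr41, a partner of the C9orf72 complex, read 0.53 and 0.93 in knockout and -0.33 and 0.30 in wild type after LPS (0.74 ± 0.34). AI316807 read 0.45 and 0.60 against -0.20 and 0.19 (0.53 ± 0.28). Arl6, a small GTPase of the primary cilium, lay the other way, at -2.50 and -2.08 against -1.60 and -0.99 (-0.99 ± 0.38). Meis1 differed by 0.39 ± 0.39 and was not well above background on any of the 4 LPS arrays, so both groups read below background.

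Over the 64 genes the knockout arrays lay wholly above wild type for 10 (15.6%, against 11.1% of all genes) and wholly below for 3 (4.69%, against 10.3%). The fitted difference was above 0 for 42 (65.6%, against 48.4% of all genes). The median was 0.16, and -0.06 without LPS. It was 0.05 with slide as a block and 0.07 within slide 2. For the 28 genes with the following A the median was 0.20, and for the 60 genes with the reverse complement 0.02. None of the 64 was called.

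Interferon-stimulated genes were more often lower than higher in knockout cells after LPS in the main fit, with a median near 0 when slide was a block. Of 50 tested, none was called, and 43 fitted differences were below 0, as were 51.6% of those of all genes. Wholly below wild type lay 7 (14.0%, against 10.3% of genes), and wholly above 3 (6%, against 11.1%). The median was -0.14 after LPS, and -0.65 without LPS. After LPS it was -0.02 with slide as a block and -0.01 within slide 2. The median after LPS ran from -0.30 to -0.01 on leaving out 1 LPS array at a time, the latter without wild-type replicate 2. Irf7, the interferon-amplifying transcription factor, read 6.53 and 6.08 in knockout and 6.72 and 6.83 in wild type (-0.47 ± 0.61). The GTPase Igtp read 5.39 and 5.09 against 5.40 and 5.86 (-0.39 ± 0.29). Isg15, a ubiquitin-like modifier, differed by -0.29 ± 0.37 and the antiviral enzyme Rsad2 by -0.27 ± 0.33, both with overlap. Oas1b, of the 2′-5′ oligoadenylate synthetase family, lay the other way (0.33 ± 0.30, without overlap).

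Most inflammatory cytokines had overlapping values in the genotypes. Of 27 tested, none was called, and 1 lay wholly above (3.70%, against 11.1% of genes) and 2 wholly below wild type (7.41%, against 10.3%). The median was -0.02, and ran from -0.15 to 0.22 on leaving out 1 LPS array at a time. Il6 read 8.58 and 8.46 in knockout and 8.63 and 8.29 in wild type (0.06 ± 0.25). Tnf differed by -0.01 ± 0.39, Il1b by 0.12 ± 0.74 and Il12a by -0.12 ± 0.34. Il12b, which encodes the p40 chain shared by interleukins 12 and 23, read 5.47 and 8.35 against 5.78 and 7.90 (0.07 ± 1.18). Its error came from the gap between replicate 1 and replicate 2 within each genotype, and the same held for Il10 at -3.91 and -0.61 against -4.51 and -0.55 (0.27 ± 1.42). Il23a differed by 0.58 ± 0.62 and Ifnb1 by 0.94 ± 0.97, both with overlap. The cytokine wholly above wild type was Il1f9 (interleukin 36 gamma), at 2.03 and 2.17 against 1.20 and 1.24 (0.88 ± 0.49). Those wholly below were the death ligand Tnfsf10 (TRAIL, -0.58 ± 0.37) and the interleukin 1 antagonist Il1rn (-0.33 ± 0.40).

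Among 21 chemokines none was called, and 4 lay wholly above wild type (19.0%, against 11.1% of genes) and 3 wholly below (14.3%, against 10.3%). The median was -0.04, or -0.52 with slide as a block, and -0.14 to 0.31 on leaving out 1 LPS array at a time. Cxcl5, which attracts neutrophils, read 4.53 and 4.30 in knockout and 3.63 and 2.84 in wild type (1.18 ± 0.33), and was the one chemokine with an unadjusted p under 0.05. It was not well above background on any unstimulated array. Ppbp, a platelet-associated CXC chemokine, read 2.19 and 2.94 against 0.73 and 1.22 (1.59 ± 0.99). Ccl9, a CC chemokine of macrophages, read 8.40 and 7.72 against 8.84 and 8.54 (-0.63 ± 0.31). These 3 did not overlap between genotypes, and none was called.

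Among maturation and antigen presentation genes none was called. Of 27 maturation and co-stimulation genes, 3 lay wholly above wild type (11.1%, equal to the 11.1% of all genes) and none below. The median was 0.10, and ran from -0.11 to 0.26 on leaving out 1 LPS array at a time. Icosl, the ligand of the T cell receptor ICOS, read 4.55 and 4.45 in knockout and 3.94 and 3.99 in wild type (0.54 ± 0.32). Cd1d1, which presents lipids, differed by 0.37 ± 0.29. Cd86, whose product was used in the sort, read 4.41 and 3.61 against 4.15 and 3.67 (0.10 ± 0.54). Cd83 differed by 0.21 ± 0.64, Cd40 by 0.17 ± 0.73 and the lymph node homing receptor Ccr7 by 0.06 ± 0.91, with overlap in all 3. The median was -0.07 over 16 genes of class I presentation (0.05 with slide as a block) and 0.14 over 12 of class II (-0.29 to 0.38 on leaving out 1 LPS array at a time).

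Of 28 genes of NF-kB signalling and feedback, 5 lay wholly above wild type (17.9%, against 11.1% of genes) and none below, with a median of 0.11 that ran from -0.12 to 0.30 on leaving out 1 LPS array at a time. The kinase Map3k8 (TPL2) read 0.89 and 0.65 against 0.28 and 0.48 (0.39 ± 0.27), and the NF-kB inhibitor Tnip3 read 0.81 and 0.59 against 0.25 and 0.11 (0.52 ± 0.45). Of 19 Toll-like receptor pathway genes, none lay wholly above and 3 wholly below (15.8%, against 10.3% of genes), with a median of -0.10, or 0.03 with slide as a block. Tlr2 read 5.40 and 5.33 against 5.81 and 5.72 (-0.40 ± 0.35) and Tlr3 -2.79 and -3.55 against -2.19 and -2.76 (-0.70 ± 0.35). No gene of either list was called.

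Cell cycle genes tended to lower values in knockout cells, with exceptions. Of 33 tested, none was called, 10 lay wholly below wild type (30.3%, against 10.3% of genes) and 2 wholly above (6.06%, against 11.1%). Fitted differences were below 0 for 29, as they were for 51.6% of all genes. Of the 33, 28 were well above background on all 4 LPS arrays and 2 on none. Kif11, dim on all 4, is among those counted as wholly below. The median was -0.35, and -0.15 without LPS. It ran from -0.41 to -0.23 over 12 alternatives and from -0.64 to -0.09 on leaving out 1 LPS array at a time, the latter without knockout replicate 1, and was 0.25 under normexp with every spot kept. Ccna2 (cyclin A2) read -4.67 and -3.02 in knockout and -2.81 and -2.90 in wild type (-0.99 ± 0.69), and was well above background on 1 knockout array. The replication genes Mcm6 and Pcna read 3.45 and 3.45 against 3.76 and 4.11, and 4.57 and 4.55 against 4.71 and 4.85. Mki67, the proliferation antigen Ki-67, lay the other way, at 3.97 and 3.96 against 3.47 and 2.20 (1.13 ± 0.48), as did the spindle checkpoint kinase Bub1 (0.49 ± 0.35).

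Metabolic and housekeeping lists had medians near 0 over the 4 LPS arrays, some of which moved when 1 array was left out. They were -0.07 for 38 genes of oxidative phosphorylation, -0.09 for 22 of glycolysis, 0.00 for 21 of sterol synthesis, -0.02 for 21 of the unfolded protein response, 0.05 for 19 stress genes and -0.01 for 16 reference genes. Leaving out 1 LPS array at a time gave -0.49 to 0.41 for sterol synthesis, -0.36 to 0.17 for glycolysis and -0.14 to 0.18 for the unfolded protein response. Hprt, a reference enzyme of purine salvage, read 3.82 and 3.67 against 3.85 and 3.69 (-0.02 ± 0.30). Of 14 genes of arginine, nitric oxide and polyamine metabolism the median was 0.03, or -0.34 with slide as a block. Nos2, inducible nitric oxide synthase, read -0.35 and -0.58 in knockout and 0.47 and -0.04 in wild type (-0.68 ± 0.33), without overlap and not called. Of 24 endocytic and pathogen receptors the median was 0.02, and -0.42 to 0.44 on leaving out 1 LPS array at a time.

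**Figure D5:**
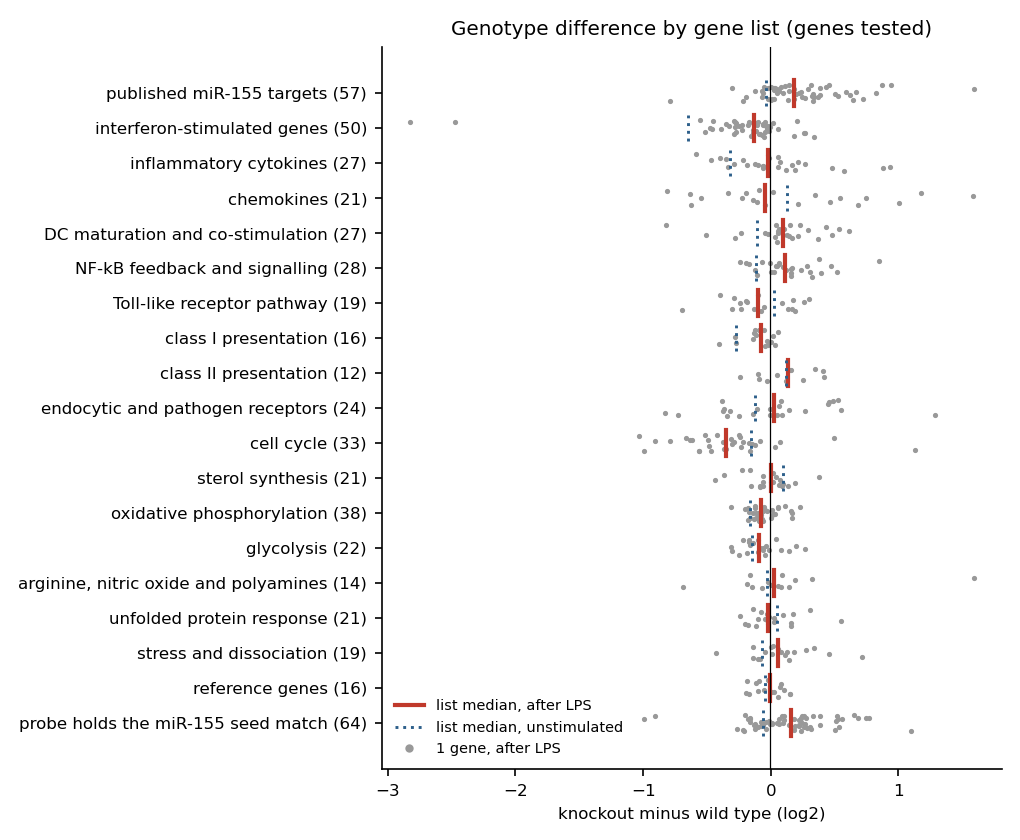
Knockout minus wild type after LPS (horizontal axis, log2), 1 point per tested gene, for 19 gene lists (vertical axis, number tested in brackets), with solid bars for the list median after LPS and dotted bars for the median without LPS. Targets have a median of 0.18 after LPS, cell cycle genes -0.35, and interferon-stimulated genes -0.14 after LPS and -0.65 without it.

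Markers of other cells that the culture could hold gave no call. The 8 dendritic markers had a median difference of 0.11, and their summed scaled intensity (in units of each array's 75th percentile) ran from 359 to 446 in knockout and from 361 to 459 in wild type. On leaving out 1 LPS array at a time their median ran from -0.27 to 0.70, and that of the macrophage markers from -0.21 to 0.89. The 7 macrophage markers had a median of 0.46 and sums of 125 and 277 against 207 and 231. Without overlap was the complement gene C1qa, at 1.47 and -0.37 against -0.64 and -0.63 (1.18 ± 0.56), and the other 6 overlapped. Fcgr1 lay the other way, at 6.88 and 4.93 against 7.11 and 6.36 (-0.83 ± 0.67). The 5 tested stromal markers had a median of 0.42 (-0.21 with slide as a block, 0.01 within slide 2) and sums of 5.55 and 14.8 against 4.58 and 8.76. The matrix gene Lum differed by 0.90 ± 0.36 without overlap, and the other 4 overlapped. The erythroid globin Hbb-b1 read 2.65 and -2.13 in knockout and 2.99 and -3.49 in wild type, so its high and low arrays went by replicate number. The other 9 lists were for monocytes, neutrophils, eosinophils, mast cells and basophils, B cells, T cells, NK cells, plasmacytoid dendritic cells and erythroid cells. Their medians ran from -0.51 (monocytes, 4 genes tested) to 0.43 (B cells, 2 genes tested). Leaving out 1 LPS array at a time gave -0.94 to 0.19 for monocytes and 0.04 to 0.81 for B cells. The part of such cells in the differences above was not tested.

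The genotype differences after LPS and without LPS were set side by side for 13526 genes detected in both states, a comparison in which no array is shared. At an unadjusted p under 0.05 there were 88 genes after LPS and 175 without, and 21 in both, 23.9% of the former and 12.0% of the latter. Of these 21, 9 were lower and 10 higher in knockout in both states and 2 went opposite ways (4930432K21Rik and AK029243). Besides Xaf1, Wdfy1 and Cbr1, they held Tbc1d23, a trafficking protein encoded on chromosome 16, at 2.32 and 2.66 in knockout and 0.95 and 1.11 in wild type after LPS (1.46 ± 0.32, and 1.16 ± 0.32 without LPS). On chromosome 11 lay 8 of the 21 (38.1%, against 8.36% of the genes compared), within mm9 chr11:70910764-86380660. These were Nlrp1a, Xaf1, Glod4, Slfn9, Slfn8, 1700020L24Rik, Tubd1 and the probe A_52_P541760. The last was higher in knockout and the other 7 were lower, with Glod4 at -0.72 ± 0.29, 1700020L24Rik at -0.89 ± 0.30 and Tubd1, delta-tubulin, at -0.97 ± 0.30 after LPS. Chromosome 14 held 3 of the 21 (14.3%, against 3.35% of the genes compared) and chromosome 16 held 2 (9.52%, against 3.24%). These shares by chromosome were seen after the values were known and have no test.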

How the data were processed

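Total RNA of 8 samples (4 groups of 2) was hybridised to 1-colour Agilent arrays. The deposited scanner files were made with Agilent Feature Extraction 10.5.1.1, per the file headers, and hold processed intensity (background-subtracted by that software), mean and background intensity, and other columns that flag detection, outliers and saturation (0 saturated spots). The deposited log2 values of the series served as an alternative only. Scripts in R 4.3.3 (limma 3.58.1, the package data.table) and Python 3.11.15 took log2 processed intensity minus each array's 75th percentile (474 to 750 intensity units), left out 1639 control spots and outlier flags (120 to 174 an array), averaged spots of a probe, kept 23739 of 41174 probes (well above background on both arrays of a group) and 1 probe per gene, the one with the highest mean. This gave 15401 genes, 15400 with a p after LPS and 48 with a value missing on some array, fitted on the arrays left. Old array names were updated through RefSeq for 11967 of 12230 accessions.

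limma (lmFit, eBayes, Benjamini-Hochberg over all genes) was fitted on all 8 arrays with 4 group means (residual df 4, prior df 2.87). It was tested on simulated data. The number of arrays limits the precision. Differences are knockout minus wild type, ± SE. The genes named are all called genes, then the smallest unadjusted p up to 15 a direction, up to 4 per list, 10 for the difference between states, and a fixed set of targets, cytokines and surface markers. Flanking genes, seed-match genes and genes with both states low in p were named after their values were seen. One gene that this rule names is not reported here. The members and the lists were chosen with earlier results of these data known. Alternatives changed the arrays fitted, background correction, scaling, detection filter, probe rule, slide, replicate block and each LPS array. The normexp fit without spots whose background exceeded their signal was chosen after seeing the data.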

Additional observations from a re-analysis of the deposited data

Results flagged for a closer look

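In 7 genes the genotype difference after LPS departed from that without LPS by a test of that difference itself (limma, adjusted p under 0.05, 0.0455% of genes). Mrpl39 gave -4.67 ± 0.45, low on the knockout LPS arrays and level elsewhere. Hmx2 gave 5.82 ± 0.42, higher in knockout after LPS (at least 1.74-fold) and lower in knockout without (at least 1.98-fold). The dimmer group of each state was below background, so the fitted size is no measured fold. The other 5 were Spag17 (5.65 ± 0.47), AK082037 (5.74 ± 0.51), NAP100574-001 (4.70 ± 0.39), AK089089 (4.16 ± 0.40) and AK034179 (3.62 ± 0.34). None of these 5 was well above background on any LPS array or any unstimulated knockout array, and each was so on the unstimulated wild-type arrays. Spag17, a protein of motile cilia, read -2.04 and -1.29 there, at least 13.3-fold above knockout, and the bound for the other 4 ran from 2.75-fold to 14.3-fold. Their values after LPS are therefore below detection in both genotypes, and the difference rests on the unstimulated arrays.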

How the results depend on the processing

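After LPS 4 genes were called. The count was 5 with quantile normalization, with the mean of a gene's probes and with slide as a random block, 7 with median scaling, 4 with the deposited table, 2 without a detection filter and 1 with detection on all 4 LPS arrays. It was 0 in limma with only the LPS arrays (245 genes at an unadjusted p under 0.05), with slide as a block (233) and within slide 2 (267, with 1 residual degree of freedom). Leaving out 1 LPS array at a time gave 0 to 1. With normexp it was 0 (380), Gm16867 reversed to 0.15 and Mmrn1 to 0.91, and most list medians moved. Knockout LPS replicate 2 held 18 spots with background above signal, the highest background being 132693. Normexp without such spots, chosen after seeing the data, gave 2 calls after LPS, 2 without LPS and 0 for the difference between states.

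The 7 genes for the difference between states became 14 with quantile normalization, 9 with slide as a random block, and 0 with normexp (202 unadjusted), without a detection filter (1019), with slide as a block (243) and without any 1 LPS array (235 to 275). The 36 calls without LPS became 58 without a detection filter, 5 with slide as a block and 0 with normexp (23). Over all alternatives 745 values of single genes, most of them never called, kept their direction and side of the threshold. Another 120 moved, 37 lost and 7 gained a call and 2 reversed. Of the list medians, 507 stayed within the median standard error of their members' differences and 35 moved further.

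Replicate numbers were checked as pairs. Deviations from group means correlated at 0.692 between knockout and wild type after LPS, and at 0.0131 to 0.498 for the other pairs of groups. The labels name no shared animal or day, so whether same-numbered samples are pairs cannot be told. The main fit did not pair them. With a replicate block 1 gene was called after LPS (Fam190a), 0 for the difference between states (305 unadjusted) and 27 without LPS. Mrpl39, Mmrn1 and Gm16867 then lay outside the threshold, at adjusted p = 0.05004, 0.0707 and 0.0897 (limma). Dim probes limit the comparison: 13747 of 15401 genes were well above background on all 4 LPS arrays and 396 on none.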
